A study of Arabidopsis thaliana with 30 samples.

Results

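The 40 transcripts described here stood out after 1 h of light in germinating Arabidopsis thaliana seed: their level was at least 2-fold higher at that time than at the end of cold treatment just before it and than at the next sampling just after it. They were chosen from the measured values. For each of 22746 non-control probe sets, each a set of short probes for 1 transcript or a group of similar ones, log2(mean intensity of a group's 3 arrays + 16) was taken. A probe set was kept where this value after 1 h of light was at least 1 above its value at the end of stratification (48 h) and at least 1 above its value after 6 h of light, and was also above its value 12 h into stratification. The heat shock genes HSP15.7, HSP26.5, HSP17.6C, ROF2, AT1G54050 and AT2G20560 were to be left out, and none of these 6 met all the thresholds in any case. Of the 40, 16 name exactly 1 gene in the platform annotation, 2 name several genes and 22 name none. Among the 16, EXO, PUB19 and Fes1A carry a symbol beyond the locus code. Probe sets without a single gene name are given by their probe set number.

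The series followed whole seed of ecotype Col-0 through germination on 30 one-colour Affymetrix arrays, 3 for each of 10 groups, from 80 mg of seed a sample. The groups were freshly harvested seed (H), dry seed after ripening (0 h), seed kept at 4 °C in darkness on MS medium for 1, 12 and 48 h (1 h S, 12 h S and 48 h S, the cold treatment called stratification), and seed moved after those 48 h to 22 °C under constant light (100 µE) for 1, 6, 12, 24 and 48 h (1 h SL, 6 h SL, 12 h SL, 24 h SL and 48 h SL). The ripening of the 0 h seed lasted 14 days by one label and 15 days by another. Light and warmth began together at the end of stratification, no group had one without the other, and so their effects cannot be told apart. The labels do not say whether the 3 samples of a group came from separate plants or batches of seed. A p-value here reflects the spread among samples within groups, pooled over all 10 groups unless stated, and nothing wider. That spread may be of technical origin. In RNA from whole seed, fewer cells of a type and less RNA per cell cannot be told apart.

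Imbibed seed that is moved into light and warmth receives several signals at once. In plants, light is read by phytochromes and other photoreceptors, and a rise in temperature activates heat shock factors that switch on chaperone genes within minutes and are then held back by the chaperones themselves. Oxygen can run short inside a hydrated seed, where group VII ethylene response factors switch on fermentation and other low oxygen genes. Mature seed also stores messenger RNA made during ripening, which is lost as germination proceeds.

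The deposited intensities ran between 2.54 and 32818, with array medians between 11.8 and 19.4, and the number of arrays limits the precision of every value. The seed storage and LEA list, which marks the ripe embryo, had 5 of 17 genes named on the array. Their summed intensity was 15228 to 15856 at 1 h SL, against 18310 to 20206 at 48 h S. Most of the sum came from AT3G01570 and the dehydrin gene LTI30, with means of 8266 and 6595 at 1 h SL. The sum was 2347 to 2649 at 6 h SL and 223 to 255 at 48 h SL, against 29668 to 31284 at 0 h. Of the seed coat list only BAN was named, with 4.09 to 4.12 at 1 h SL, close to the lowest intensities on the arrays and alike in all groups (3.91 to 4.95). None of the 4 endosperm genes was named, so these tissues were not followed.

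Across the 40 probe sets, the mean intensity at 1 h SL ranged between 53.8 and 5980 with a median of 415. The median of the 40 means was 77.8 in H, 87.2 at 0 h, 72.0 at 1 h S, 71.8 at 12 h S, 37.6 at 48 h S, 415 at 1 h SL, 55.9 at 6 h SL, 38.7 at 12 h SL, 43.5 at 24 h SL and 19.4 at 48 h SL. The height of each peak, the smaller of its log2 differences to 48 h S and to 6 h SL, had a median of 2.02 and a maximum of 5.22. It reached 2 in 20 probe sets, 3 in 10 and 4 in 4. Every array of 1 h SL read above every array of 48 h S and of 6 h SL in 40 of 40, where 2.34% of all probe sets did so, a count that the selection produced. Against 12 h S, where the selection required only a higher mean, this held in 32 of the 40. The share of all probe sets was not counted for 12 h S. In 12 of the 40 the mean at 48 h S was under 16, where adding 16 before the logarithm makes a difference smaller than the ratio of intensities.

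The members just inside the threshold were Fes1A with a peak height of 1.25, 259432_at with 1.11, AT1G33055 with 1.07, 250437_at with 1.07 and 249384_at with 1.04 on the log2 scale. Just outside it lay AT1G61260 with 0.95, AT2G20670 with 0.92, AT4G02540 with 0.88, AT3G09440 with 0.87 and AT2G44500 with 0.82. No gap separated the 2 sides. AT1G54050, a gene to be left out, had a peak height of 3.82 but read higher at 12 h S, with a log2 difference of -0.20 for 1 h SL against 12 h S. ROF2 is a peptidyl-prolyl isomerase of the FKBP family that acts in heat tolerance. Its mean was 0.40 higher at 1 h SL than at 6 h SL on the log2 scale, through replicate 1 alone. The arrays of ROF2 read 129, 28.5 and 32.7 at 1 h SL, against 42.7, 50.9 and 38.8 at 6 h SL.

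The 40 were not alike before the light. The 1 h SL group had the highest mean of all 10 groups in 26 of them, against 4.78% of all probe sets; since the selection placed 1 h SL above 3 of the other groups, this count is a description. Of the other 14, 9 were highest in H, 0 h or 1 h S, and 5 were highest later in the light. On the scale of log2(mean intensity + 16), 7 were at least 1 above 48 h S in dry seed (0 h) but not at 12 h S, 13 were so at both times, 3 at 12 h S only, and 17 at neither. Over all probe sets these shares were 2.37%, 6.01%, 2.37% and 89.3%, and the selection, which required a low value at 48 h S, shaped the counts of the 40. By the plain ratio of mean intensities, a measure chosen after seeing the data, 7 were at least 2-fold above 48 h S in dry seed only, 17 at both times, 3 at 12 h S only and 13 at neither. Over all probe sets the shares by this ratio were 3.88%, 7.56%, 3.24% and 85.3%. The block of 13 on the log2 scale holds transcripts that were present in dry seed, lower by the end of stratification and high again after 1 h of light. Some of the 17, such as AT3G10040 at 12 h S and AT1G66080 in dry seed, were over 2-fold above 48 h S by plain intensity.

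**Figure D1:**
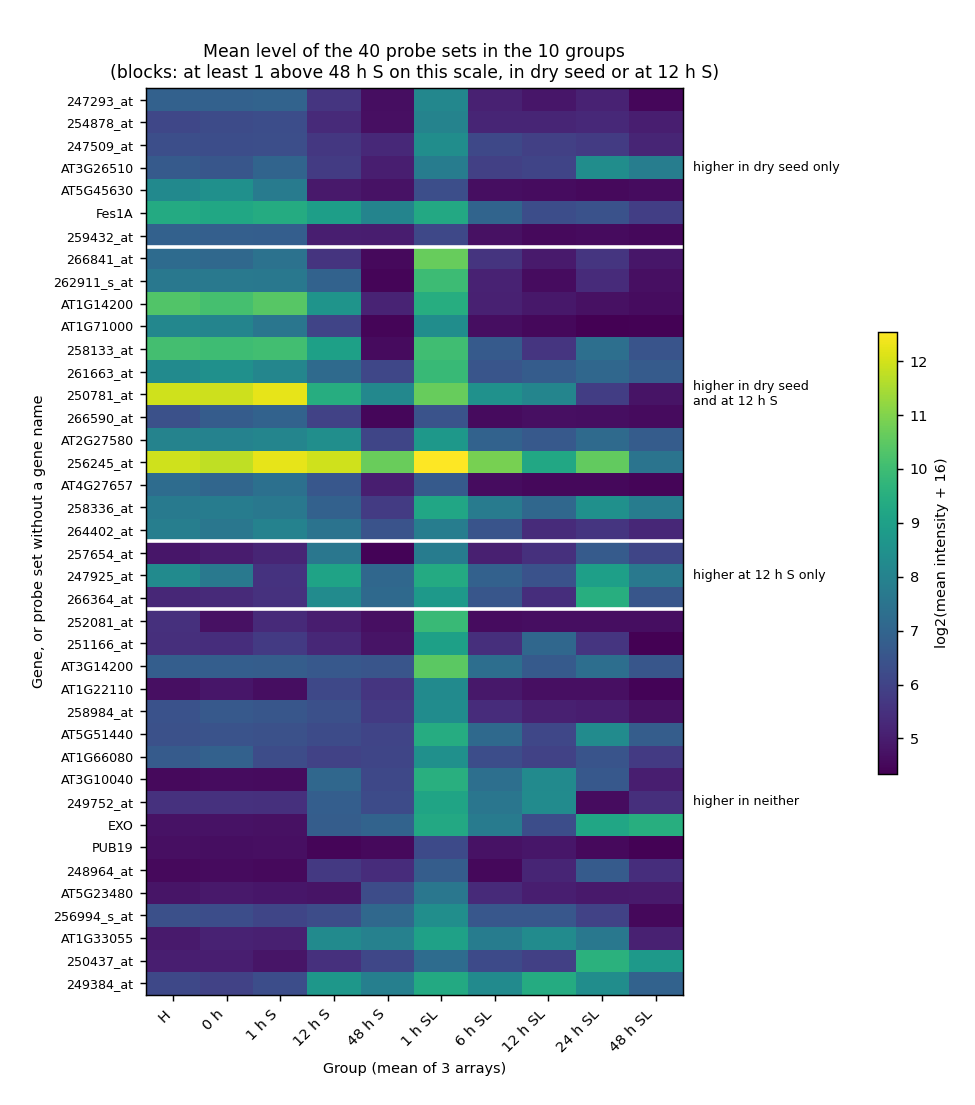
Mean level of the 40 probe sets in the 10 groups, in time order from left to right, as log2(mean intensity + 16) of 3 arrays. White lines part the 7, 13, 3 and 17 probe sets that were at least 1 above 48 h S on this scale in dry seed only, in dry seed and at 12 h S, at 12 h S only, and in neither; the column of 1 h SL is brighter than both neighbours in every row, as the selection required.

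Among the 17 in the last block, 252081_at had the greatest peak height and no gene name. It read 1412, 606 and 786 on the 3 arrays of 1 h SL, against 9.42, 9.43 and 9.68 at 48 h S. At 6 h SL it read 9.20, 6.80 and 9.20, and in dry seed it averaged 10.3 ± 0.405 (SD, n = 3). It was thus near the floor of the arrays on both sides of the peak. AT3G14200 read 1936, 1034 and 1237 at 1 h SL, against 56.2, 84.7 and 82.2 at 48 h S, and then 118, 178 and 135 at 6 h SL. Its level was 95.1 ± 22.8 in dry seed and 76.5 ± 15.0 at 48 h SL (SD, n = 3 each), so that 1 h SL was its one large peak. AT1G22110 read 385, 224 and 269 at 1 h SL, against 32.5 ± 5.54 at 48 h S. Its 6 h SL arrays read 11.1, 11.9 and 16.3, below those of 48 h S, and it was at 12.9 ± 1.83 in dry seed and 5.35 ± 0.420 at 48 h SL (SD, n = 3 each). AT1G66080 read 464, 226 and 325 at 1 h SL, against 45.5, 51.5 and 54.7 at 48 h S, and 61.1, 52.2 and 72.9 at 6 h SL. Its arrays at 6 h SL overlapped with those of 48 h S. AT5G23480 read 231, 166 and 135 at 1 h SL, against 53.2, 62.9 and 63.2 at 48 h S, and it was among the smaller peaks. At 6 h SL it read 20.2, 22.7 and 29.6, so that it lay below its 48 h S level again.

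The reference gene table lists AT3G10040 also as HYPOXIA RESPONSE ATTENUATOR1, a trihelix transcription factor that dampens the low oxygen response. It was near the floor of the arrays in dry and fresh seed, with 8.48 ± 0.371 at 0 h and 7.73 ± 0.975 in H (SD, n = 3 each). Its arrays read 763, 745 and 631 at 1 h SL, against 51.2, 62.0 and 46.2 at 48 h S. At 6 h SL they read 144, 140.0 and 159, and at 12 h S 121, 118 and 121. The 3 arrays of each of these groups lay close together, and those of 1 h SL stood clear of all the others. AT1G33055, also on the low oxygen list, had a much smaller peak, with 493, 449 and 579.7 at 1 h SL against 225, 256 and 218 at 48 h S. Its 6 h SL arrays read 172, 137 and 309.9, the highest of them reaching the level of 12 h S. This gene too was low in dry seed, with 19.3 ± 8.17 at 0 h (SD, n = 3).

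PUB19 encodes a U-box ubiquitin ligase. It read 61.9, 67.3 and 40.5 at 1 h SL, against 7.41, 8.01 and 8.01 at 48 h S, and 14.1, 10.6 and 8.74 at 6 h SL. All its levels outside 1 h SL were close to the floor, as at 12 h S, where it read 6.58, 7.13 and 4.65. EXO (EXORDIUM, locus AT4G08950), a brassinosteroid-responsive gene that promotes cell expansion, read 1043, 411 and 397 at 1 h SL, against 129, 113 and 86.9 at 48 h S. Its 6 h SL arrays read 201, 207 and 199, and its dry seed level was 10.7 ± 2.29 (SD, n = 3). The first array of 1 h SL was far above the other 2, which still lay above every array of both neighbouring times. AT5G51440, a gene on the heat shock list, read 1007, 429 and 586 at 1 h SL, against 49.0, 56.0 and 44.2 at 48 h S, and 107, 148 and 124 at 6 h SL. It was less than 2-fold above 48 h S in dry seed, with 71.0 ± 6.75 at 0 h (SD, n = 3).

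The block of 13, above 48 h S in dry seed and at 12 h S, included AT1G14200. It read 915, 513 and 636 at 1 h SL, against 18.7, 19.6 and 22.3 at 48 h S. At 6 h SL it read 21.7, 19.2 and 13.2. Dry seed held 1097 ± 171, and 1 h S seed 1351 ± 151, against 365 on the middle array of 12 h S (SD, n = 3 each). The transcript was therefore plentiful before imbibition, close to gone at 48 h S, and at 1 h SL back to a level between those of 12 h S and dry seed. AT1G71000 read 557, 124 and 262 at 1 h SL, against 5.65, 7.28 and 5.62 at 48 h S, and 8.13, 9.53 and 9.99 at 6 h SL. Dry seed held 249 ± 76.7 and 12 h S arrays 34.8, 49.2 and 63.0 (SD, n = 3). Its 3 arrays at 1 h SL spanned more than 4-fold, and the middle one was close to the dry seed mean. 258133_at also rose to around its dry seed level, with 1676, 539 and 917 at 1 h SL, against 11.2, 6.88 and 6.97 at 48 h S. Dry seed held 1003 ± 94.8 of it (SD, n = 3). Its 6 h SL arrays read 80.0, 73.4 and 106, still well above those of 48 h S. 266841_at was higher at 1 h SL than in dry seed, with 2347, 1014 and 1422 against 124 ± 18.6 (SD, n = 3), and it read 10.2, 4.52 and 7.43 at 48 h S. AT2G27580 read 515, 269.6 and 434 at 1 h SL, against 58.3, 50.1 and 43.4 at 48 h S, and 106, 90.4 and 119.6 at 6 h SL. One of its 1 h SL arrays lay below all those of 12 h S, which read 332, 313 and 323. AT4G27657 read 102, 90.6 and 62.3 at 1 h SL, against 13.9 to 18.7 at 48 h S. Here too the arrays of 12 h S, with 73.8, 81.8 and 79.7, overlapped with those of 1 h SL, and 1 h S seed at 151 ± 27.8 was higher still (SD, n = 3).

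The brightest member was 256245_at, which read 7417, 4978 and 5544 at 1 h SL, against 1695, 1546 and 1582 at 48 h S, and 1800, 2002 and 1784 at 6 h SL. 250781_at had a tighter peak with 1691, 1446 and 1567 at 1 h SL, against 268, 275 and 272 at 48 h S, and 348, 369.6 and 329 at 6 h SL. Both were plentiful earlier, 250781_at reaching 4816 ± 66.8 at 1 h S (SD, n = 3).

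Of the block of 7, above 48 h S by at least 1 on the log2 scale in dry seed but not at 12 h S, Fes1A (locus AT3G09350), a nucleotide exchange factor of the chaperone HSP70, was the brightest at 1 h SL. It read 784, 507 and 563 at 1 h SL, against 242, 238 and 275 at 48 h S, and 108, 114 and 110.5 at 6 h SL. Dry seed held 590.1 ± 55.6, so that 2 of the 3 arrays at 1 h SL lay below the dry seed mean (SD, n = 3). AT5G45630 read 92.1, 46.4 and 52.3 at 1 h SL, against 10.1, 12.2 and 9.94 at 48 h S, while dry seed held 334 ± 81.3 (SD, n = 3). Its level at 1 h SL was well below the stored one. AT3G26510 read 264, 178 and 182 at 1 h SL, against 17.1, 18.5 and 14.8 at 48 h S, and 41.2, 52.9 and 35.6 at 6 h SL. With 77.3 ± 10.0 in dry seed (SD, n = 3), its 1 h SL arrays all exceeded the stored level.

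**Figure D2:**
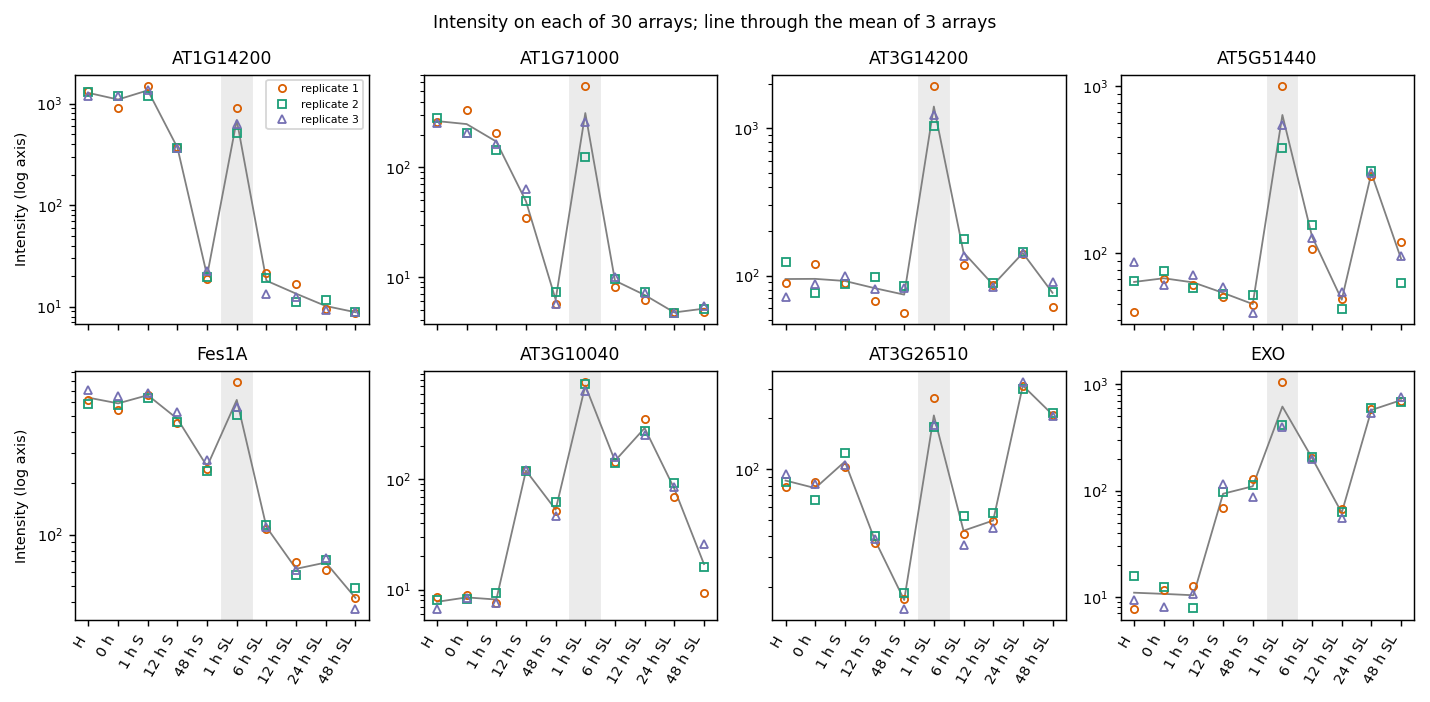
Intensity on each of the 30 arrays (log axis) for 8 of the 40 transcripts, with the 10 groups in time order, symbols for replicates 1 to 3 and a line through the group means; 1 h SL is shaded. AT1G14200 and AT1G71000 are high in dry seed and again at 1 h SL, AT3G14200 has its one large peak at 1 h SL, AT3G10040 is near 8 in dry seed, and AT5G51440, AT3G26510 and EXO are high again at 24 h SL.

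Replicate spread at 1 h SL was larger for the 40 than for other transcripts, which is given as a description since the selection used these arrays. The median SD of log2(intensity + 16) over the 3 arrays of 1 h SL was 0.450 for the 40, against 0.118 for all probe sets with a mean of at least 50 in that group. In the other groups the median for all 40 lay between 0.083 and 0.205. Replicate 1 was the highest array in 35 of the 40 and replicate 2 the lowest in 31. The order was replicate 1, then 3, then 2 in 28. The ratio of replicate 1 to the mean of the other 2 had a median of 1.63 and a range of 0.952 to 5.06, and it reached 1.5 in 26 members. Among the 8317 probe sets with a 1 h SL mean of at least 50, its median was 1.00, 1.36% reached 1.5, and replicate 1 was highest in 33.6%.

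The widest ratio was that of 266590_at, which read 153, 19.3 and 41.4. At the other end, 7 members had a ratio under 1.2: 256994_s_at, AT1G33055, 249384_at, AT3G10040, 250781_at, 259432_at and PUB19. Both members on the low oxygen list were thus among these 7, and both on the heat shock list were not, with 1.98 for AT5G51440 and 1.47 for Fes1A. The ratio shows only whether replicate 1 stood out, since PUB19 read 61.9, 67.3 and 40.5. Over the whole lists, replicate 1 was the highest array for 11 of 11 named heat shock genes, with a median ratio of 1.99. For the 13 named low oxygen genes it was highest in 4, with a median ratio of 1.00. AT1G54050, one of the genes to be left out, read 2595, 1116 and 1418 on the 3 arrays, the same order as most of the 40.

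Other measures of the 1 h SL arrays differed as well. For 2701 other probe sets that differed between 48 h S and 6 h SL, each array's place on that path, as the slope of its difference from 48 h S on the whole difference, was 0.249 for replicate 1, 0.155 for replicate 2 and 0.160 for replicate 3. Array medians were 15.1, 15.0 and 13.1. The log2 ratio of 3′ to 5′ control probe sets, a sign of RNA length, was 0.60, 0.42 and 0.31 for actin, -0.39, -0.20 and -0.06 for GAPDH and -0.68, -1.05 and -0.87 for ubiquitin. Their part in the spread was not tested. Without replicate 1 of 1 h SL the same rule gave 33 probe sets, all of them among the 40. EXO, AT4G27657, 247925_at, 250437_at, 257654_at, 258336_at and 266590_at then failed it. Without replicate 2 it gave 43, with all 40 among them, and without replicate 3 it gave 41, with AT1G33055 and 249384_at lost.

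**Figure D3:**
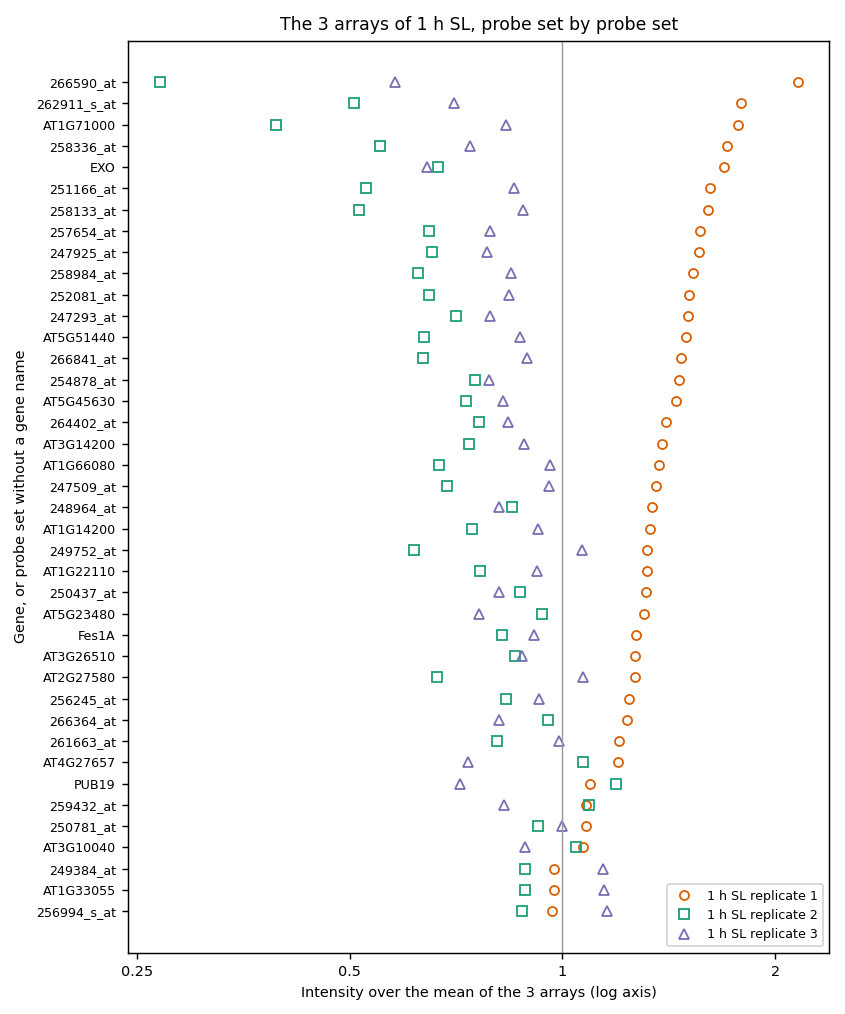
The 3 arrays of 1 h SL for each of the 40 probe sets, as intensity over the mean of the 3 (log axis), ordered by the ratio of replicate 1 to the other 2 arrays. Replicate 1 (circles) lies to the right of both other arrays in 35 of 40, while the last rows, AT3G10040, AT1G33055 and 256994_s_at among them, have arrays close together.

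Comparisons that the selection did not use were tested with limma on log2(intensity + 16) over all 30 arrays, with Benjamini-Hochberg adjustment over the 22746 probe sets. A probe set was called at an adjusted p under 0.05 and a log2 difference of at least 1. The shares of all probe sets given below were not matched for brightness. Many of all probe sets lie near the floor of the arrays and can hardly be called lower. Each of the 40 had a 1 h SL mean of at least 53.8. Dry seed against freshly harvested seed gave 0 calls among the 40, against 0.321% of all probe sets, and limma's unadjusted p was under 0.05 for 2 of them. The median difference of the 40 was -0.00, against 0.01 for all probe sets. In 1 h S against dry seed 1 of the 40 was called, against 0.514% of all. This was 247925_at, with 30.8 ± 14.1 at 1 h S and 187 ± 68.7 at 0 h (SD, n = 3 each), a log2 difference of -2.10 ± 0.26 (SE, limma adjusted p = 2.06e-05). With only these 2 groups in the fit it was not called. No other member was called for the first hour in water.

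Late in the light period several of the 40 came back. In 24 h SL against 12 h SL, 11 of 40 rose (27.5%), against 4.92% of all probe sets, and 5 fell (12.5%), against 2.3%. EXO rose most among the named genes, with 579, 601 and 537 at 24 h SL against 61.9 ± 6.05 at 12 h SL (SD, n = 3). The log2 difference was 2.92 ± 0.23 (SE, limma adjusted p = 6.70e-10). AT3G26510 read 312, 299 and 327 at 24 h SL, against 49.7 ± 5.07 at 12 h SL (SD, n = 3), higher by 2.33 ± 0.12 (SE, limma adjusted p = 1.62e-13). AT5G51440 read 290.3, 313 and 304 at 24 h SL, against 52.8 ± 6.18 at 12 h SL (SD, n = 3), higher by 2.21 ± 0.22 (SE, limma adjusted p = 2.10e-08). All 3 arrays of 24 h SL exceeded those of 12 h SL in each of these genes. 250437_at, without a gene name, had 745 ± 60.1 at 24 h SL and 43.9 ± 10.9 at 12 h SL (SD, n = 3 each), above its own level at 1 h SL. AT3G10040 went the other way. It held 82.4 ± 12.1 at 24 h SL and 293 ± 52.2 at 12 h SL (SD, n = 3 each), a log2 difference of -1.65 ± 0.13 (SE, limma adjusted p = 9.20e-10). 249752_at fell to 8.59 ± 0.466 at 24 h SL, against 298 ± 35.2 at 12 h SL (SD, n = 3 each). Measured from 6 h SL, where the selection required a low value, 10 of the 40 were higher by at least 1 on the scale of log2(mean intensity + 16) at some later time, against 13.6% of all probe sets, which is given as a description. Their highest later group was 24 h SL in 7, 12 h SL in 2 and 48 h SL in 1.

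The next change was that between 24 h SL and 48 h SL. In 48 h SL against 24 h SL, 11 of 40 fell (27.5%), where 3.04% of all probe sets fell, and 0 rose, where 4.6% of all did. The median difference was -0.61 for the 40 and -0.00 for all. Of the 40, limma's adjusted p alone, with no minimum difference, called 25, of which 24 were lower and 1 higher. The 1 higher was 249752_at, with 27.5 ± 0.911 at 48 h SL and 8.59 ± 0.466 at 24 h SL (SD, n = 3 each). By the same measure 8694 of all 22746 probe sets were called. With 1 in place of 16 added to the intensities, 15 fell and 1 rose. AT1G33055 held 18.1 ± 10.7 at 48 h SL and 181 ± 28.8 at 24 h SL (SD, n = 3 each), a log2 difference of -2.57 ± 0.22 (SE, limma adjusted p = 1.56e-09). AT3G10040, the hypoxia response attenuator, held 17.0 ± 8.32 at 48 h SL and 82.4 ± 12.1 at 24 h SL, lower by a log2 difference of -1.60 ± 0.13 (SE, limma adjusted p = 1.20e-09). AT5G51440 held 93.0 ± 25.1 at 48 h SL and 303 ± 11.4 at 24 h SL, with a log2 difference of -1.57 ± 0.22 (SE, limma adjusted p = 3.09e-06). With 64 added, 6 were called, all lower.

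The last time point, 48 h SL, against dry seed (0 h) gave 28 calls among the 40, against 35.1% of all probe sets, 22 lower (55%, against 15.4% of all probe sets) and 6 higher (15%, against 19.7%). The median difference was -1.12 for the 40 and -0.05 for all. AT1G14200 had 8.82 ± 0.072 at 48 h SL and 1097 ± 171 at 0 h (SD, n = 3 each), a log2 difference of -5.47 ± 0.14 (SE, limma adjusted p = 9.97e-20). Fes1A had 42.5 ± 6.00 at 48 h SL and 590.1 ± 55.6 at 0 h (SD, n = 3 each), lower by a log2 difference of -3.37 ± 0.11 (SE, limma adjusted p = 1.25e-17). AT5G45630, AT1G71000 and AT4G27657 also fell, with log2 differences of -3.81 ± 0.20, -3.61 ± 0.29 and -2.57 ± 0.13 (SE). EXO had 709 ± 37.4 at 48 h SL and 10.7 ± 2.29 at 0 h (SD, n = 3 each), higher by 4.77 ± 0.23 (SE, limma adjusted p = 1.31e-14). AT3G26510 was higher by 1.29 ± 0.12 (SE, limma adjusted p = 9.87e-10). The split depended on scaling: with each array centred on its median, 22 were lower and 2 higher, with quantile normalization 22 and 3, and the median of all probe sets was then -0.36 in place of -0.05 under median centring. AT3G26510 was among those no longer called under median centring, at 0.98.

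**Figure D4:**
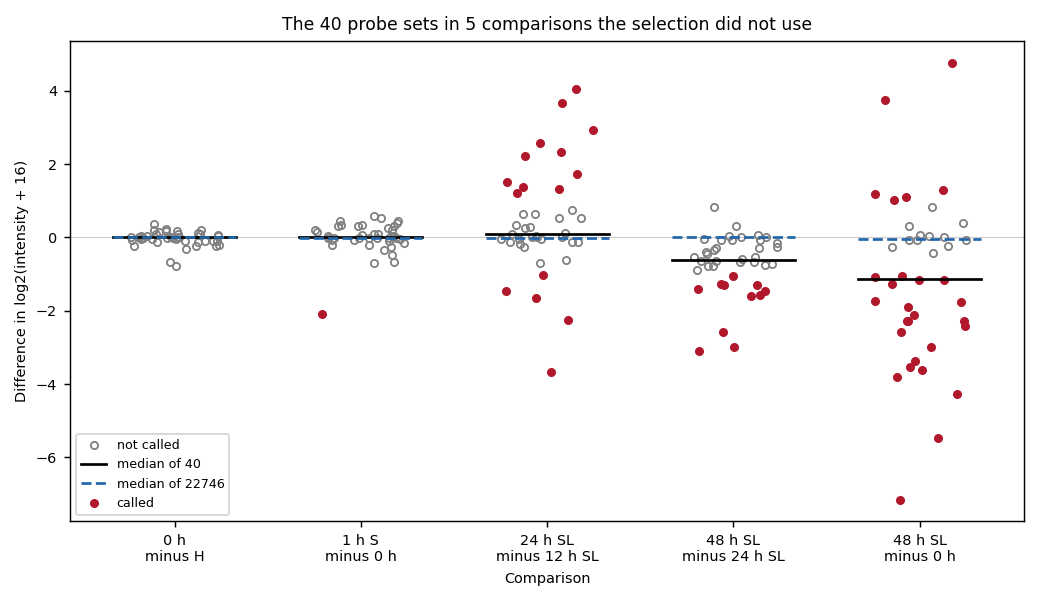
Difference in log2(intensity + 16) of each of the 40 probe sets in the 5 comparisons that the selection did not use, first group minus second. Filled points were called by limma (adjusted p under 0.05 and a difference of at least 1); lines mark the median of the 40 (black) and of all 22746 (blue dashes), which stand at -1.12 and -0.05 for 48 h SL minus 0 h.

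The same times were examined for lists of genes of related function. In 1 h SL against 48 h S, which the selection used, limma called 0.567% of all probe sets higher and 0.22% lower. Of the heat shock list, 11 of 38 genes were named on the array, and 7 were called higher and 0 lower, with a median difference of 1.47. Members of the 40 among them were AT5G51440 and Fes1A, and AT1G54050, AT2G20560, HSP15.7, HSP26.5 and ROF2 were the others. These genes were known to have moved in this comparison when the list was drawn up, so that the count is a description. It was 3 of 11 with only the 2 groups in the fit, whereas the main fit pooled the spread over all 10 groups. Without replicate 1 of 1 h SL it was 6, ROF2 being lost, which read 129, 28.5 and 32.7 on the 3 arrays. Without replicate 2 of 1 h SL it was 9. In 6 h SL against 1 h SL, where 4.39% of all probe sets were lower and 4.29% higher, 6 heat shock genes were lower and 0 higher, with a median of -2.07.

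Of the low oxygen list, 13 of 29 genes were named. At 1 h SL against 48 h S, 4 were higher and 0 lower, with a median difference of 0.76. They were the members AT3G10040 and AT1G33055 and the non-members AT3G27220, with a log2 difference of 2.47, and AT4G10270, with 1.39. The selection used this comparison, and the list was chosen with earlier results of these data known, so its counts are a description. AT4G10270 read 2758 ± 178 at 1 h SL and 1045 ± 84.0 at 48 h S (SD, n = 3 each), yet 4404 at 12 h S, so its level at 1 h SL was no peak of the whole course. PDC2, which encodes the pyruvate decarboxylase of fermentation, was not called, at 458 ± 45.5 at 1 h SL and 593 ± 63.6 at 48 h S (SD, n = 3 each). By adjusted p under 0.05 alone, PDC2 was lower, at -0.36, and CML38, also on this list, was higher, at 0.62. At 6 h SL against 1 h SL, 5 of the 13 were lower and 0 higher, with a median of -0.70.

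The other lists had fewer calls and no member among the 40. At 1 h SL against 48 h S, limma called 0 of 6 rapid stress regulators (2 with unadjusted p under 0.05), 0 of 3 light signalling genes (2), 0 of 4 gibberellin genes (1), 0 of 5 seed storage and LEA genes (2) and 0 of 1 seed coat gene (0). By adjusted p under 0.05 alone, with no minimum difference, FHL, GID1A and LTI30 were lower, at -0.70, -0.57 and -0.49. CML38 and AT2G42560 were higher by that measure, at 0.62 and 0.88. Of 3 circadian clock genes 1 was lower, AT4G33980 at -1.35, and of 5 early auxin genes 1 was lower, the homeobox gene HAT2 at -1.47. Of 10 genes of cell wall loosening 2 were higher, the expansin EXPA15 at 1.11 and XTH16 at 1.01. Neither of these 2 was called without replicate 1 of 1 h SL, where they were at 0.96 and 0.67, nor with only the 2 groups in the fit (limma adjusted p = 0.0973 and 0.282). At 6 h SL against 1 h SL, 4 of 5 storage and LEA genes were lower and 0 higher, the dehydrin LTI30 by a log2 difference of -6.10. In the same comparison the light signalling list had 1 lower (HYH, -1.90), the clock list 2 lower (AT4G33980, -1.93, and COR27, -1.49), the gibberellin list 1 lower (the receptor gene GID1A, -1.19) and the cell wall list 2 higher (the expansins EXPA9, 2.02, and EXPA4). The rapid stress, early auxin and seed coat lists had 0 calls by limma there, with 2, 2 and 0 at an unadjusted p under 0.05. By adjusted p under 0.05 alone, STZ and CML38 of these lists were lower, at -0.28 and -0.54, and WES1 and HAT2 higher, at 0.79 and 0.47. On the light signalling list, FHL was lower by that measure, at -0.37, and SPT was higher, at 0.95.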

How the data were processed

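The intensity of each probe set on each of 30 Affymetrix arrays was used as deposited by the authors. MAS5, RMA and Partek are named in the submitters' processing notes, with versions and roles not given in the sources used here. Detection calls were not used. Biotin-labelled RNA was made from 400 ng of total RNA, per the labels' protocols. Of 22810 probe sets, 64 controls were left out. Of the rest, 13513 name 1 gene in GEO's platform annotation, 503 name several and 8730 name none.

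The 40 probe sets and the gene lists were chosen with earlier results of these data known. Genes were named by rule: members that name exactly 1 gene, the nearest on each side of the threshold, and up to 3 called genes of each list and direction. Probe sets given by number, ROF2, PDC2 and other genes outside that rule were chosen after their values were seen. No neighbouring pairs were found among the 16 named genes. Means ± SD are of intensities. Fits were made with limma 3.58.1 (R 4.3.3) on log2(intensity + 16), with all 10 groups, no replicate block and 20 residual degrees of freedom. Benjamini-Hochberg adjustment ran over 22746 probe sets, and the fit was tested on simulated data. Adding 16 understates changes of dim transcripts. Between the groups compared, same-numbered samples' deviations from their group means correlated between -0.29 and 0.18. This gave no sign of pairing by number, which 3 arrays a group cannot exclude. Alternatives were other added constants, scalings, filters, fits and left-out arrays. Promoter motifs and sequences were not analysed here.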

Additional observations from a re-analysis of the deposited data

How the results depend on the processing

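The selection gave 50 probe sets, all 40 among them, with 1 added to the intensities in place of 16, and 30, all among the 40, with 64. It gave 40 with 39 shared under quantile normalization and under median centring, and 38 to 41 when an array of 12 h S, 48 h S or 6 h SL was left out. In dry seed against H, 1 member was called in place of 0 with 1 added, under quantile normalization, and by adjusted p alone with no minimum difference. In 1 h S against dry seed the count of 1 became 2 with 1 added, 0 with only those groups in the fit and 7 by adjusted p alone. By adjusted p alone 25 were called in 24 h SL against 12 h SL, in place of 16, and 25 in 48 h SL against 24 h SL, in place of 11. Of all 22746 probe sets, adjusted p alone called 364 in dry seed against H and 3552 in 1 h S against dry seed. It called 8147 of all in 24 h SL against 12 h SL and 8694 in 48 h SL against 24 h SL. For 1 h SL against 48 h S and 6 h SL against 1 h SL these counts were 1641 and 7753. With 64 added, 48 h SL against 24 h SL gave 6 and 48 h SL against dry seed 17, in place of 28. Over the gene lists, 15 calls at 1 h SL against 48 h S became 9 with only those groups in the fit and 26 by adjusted p alone, and 21 calls at 6 h SL against 1 h SL became 36 by adjusted p alone. With 1 added, 48 h SL against 24 h SL gave 15 lower and 1 higher, in place of 11 and 0. The causes were not tested. Leaving out 1 array gave 15 to 16, 11 to 12 and 25 to 28 calls in the 3 late comparisons, and 12 to 17 and 21 to 24 over the lists. With the replicate number as a block, the counts were 0, 1, 16, 11, 28, 15 and 21, the same as without it. AT3G10040 in 48 h SL against 24 h SL was not called with 64 added, at -0.86, nor was AT3G26510 in 48 h SL against dry seed, at 0.96. Signs were followed through the alternatives only for called genes named by rule, and none of them changed sign. ROF2 was not among them. Dim probe sets lie near the floor of the arrays, where small differences cannot be seen.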
